A study of Mus musculus with 4 samples.

Results

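The 31 genes described here encode the enzymes of glycolysis and of the pentose phosphate pathway, 2 glucose transporters and a few enzymes that branch off these routes. They were taken by symbol from the 32285 gene rows of the deposited matrices, and all 31 were found. They comprise 2 genes of glucose uptake, 8 of upper glycolysis, 7 of lower glycolysis, 4 that set the level of fructose 2,6-bisphosphate, 7 of the pentose phosphate route and 3 of side branches. Aldoa has a second row, and the row of the locus on chromosome 7 (126795234 to 126800751, GRCm38) was used for single genes, isoform shares and counts of members. Sums over all members or over the glycolysis enzymes also include the second row.

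The study sequenced single cells of tumours from C57Bl6 mice aged 6 to 8 weeks, in 2 libraries labelled Control and 2 labelled Nanocapsule. The tumour line, the load of the nanocapsules and the dose are not given in the labels, which also do not say whether each library came from a separate mouse. P-values between the treatments therefore measure the spread between these libraries, which may be technical. The labels call the cells cancer cells, but the libraries also held immune and stromal cells.

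Glycolysis turns glucose into pyruvate in the cytosol and yields ATP and NADH. The pentose phosphate pathway takes glucose 6-phosphate aside to make NADPH and ribose 5-phosphate. Several steps have more than 1 gene, whose products differ in regulation and in the tissues that use them, and many glycolytic genes are known targets of the hypoxia-inducible factors.

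Promoter sequences are shown for the 4 members with the highest and the 2 with the lowest ratio between a tumour-like cluster led by Nppb, Pgf and Ero1l and the other tumour-like cells, described further on. Each is the 250 bases before the transcription start in the RefSeq table for GRCm38.p6, read 5′ to 3′ along the gene. The windows are Eno2 at chr6:124769674-124769923 (minus strand), Slc2a1 at chr4:119108495-119108744 (plus strand), Pfkp at chr13:6648772-6649021 (minus strand), Hk2 at chr6:82774455-82774704 (minus strand), Gpd1l at chr9:114933988-114934237 (minus strand) and Prps1 at chrX:140456353-140456602 (plus strand). Capitals mark ACGTG or GCGTG on either strand, the core letters of the element bound by the hypoxia-inducible factors.
Eno2: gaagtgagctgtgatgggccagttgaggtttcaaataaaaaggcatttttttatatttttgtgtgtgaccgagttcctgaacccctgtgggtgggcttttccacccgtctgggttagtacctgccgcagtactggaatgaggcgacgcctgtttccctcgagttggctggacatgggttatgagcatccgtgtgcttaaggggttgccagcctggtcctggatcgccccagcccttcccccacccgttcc
Slc2a1: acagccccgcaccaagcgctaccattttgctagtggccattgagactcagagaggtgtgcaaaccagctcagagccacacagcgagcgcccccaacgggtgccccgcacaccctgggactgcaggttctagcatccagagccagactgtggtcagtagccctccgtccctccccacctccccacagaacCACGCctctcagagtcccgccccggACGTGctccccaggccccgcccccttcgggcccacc
Pfkp: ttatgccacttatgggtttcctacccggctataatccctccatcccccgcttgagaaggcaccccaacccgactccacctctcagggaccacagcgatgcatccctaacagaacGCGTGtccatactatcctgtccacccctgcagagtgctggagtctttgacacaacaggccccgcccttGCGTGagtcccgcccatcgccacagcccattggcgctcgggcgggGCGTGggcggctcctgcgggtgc
Hk2: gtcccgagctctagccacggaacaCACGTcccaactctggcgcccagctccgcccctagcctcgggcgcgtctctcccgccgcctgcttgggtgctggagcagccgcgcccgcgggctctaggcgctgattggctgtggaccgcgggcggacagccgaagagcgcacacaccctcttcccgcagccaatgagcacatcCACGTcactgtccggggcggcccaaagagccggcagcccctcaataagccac
Gpd1l: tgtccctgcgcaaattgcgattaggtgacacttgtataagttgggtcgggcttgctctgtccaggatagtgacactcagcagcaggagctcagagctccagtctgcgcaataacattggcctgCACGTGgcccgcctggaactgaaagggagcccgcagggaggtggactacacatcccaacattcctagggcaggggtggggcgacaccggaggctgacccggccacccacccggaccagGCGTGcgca
Prps1: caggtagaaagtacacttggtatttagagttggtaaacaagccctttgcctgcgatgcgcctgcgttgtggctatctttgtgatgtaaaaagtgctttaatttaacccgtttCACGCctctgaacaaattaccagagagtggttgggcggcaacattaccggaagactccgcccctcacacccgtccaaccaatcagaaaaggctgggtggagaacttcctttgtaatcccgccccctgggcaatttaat
Pfkp holds 3 matches, Gpd1l 3, of which a pair overlaps, Slc2a1 2, Hk2 2, Prps1 1 and Eno2 0. The table held 30 of the 31 members, of which 20 have at least 1 match, while 38.6% of all 32851 windows of that length do. Of the 17 members that were higher in that cluster in every library, 11 have a match, and of the 11 that were lower, 7 do. A match is a description of letters and not a bound site.

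After filtering, 9548 cells remained, and clusters made without the 31 genes were named from marker lists. Clusters named erythroid (1069 and 83 barcodes) and an unnamed cluster (411) entered no class and no comparison. The largest also had Fgf21 and Nppb, leading genes of tumour-like clusters, among its leading genes. It held 238 and 237 barcodes in Control 1 and 2 and 384 and 210 in Nanocapsule 1 and 2. The tumour-like class, defined by melanocytic markers, held 6887 cells and 83105707 to 126679596 unique molecular identifiers (UMIs) a library. The macrophage-like class held 492 cells (1329847 to 2446945 UMIs), the T- and NK-like class 216 (86111 to 725674 UMIs) and the B-like class 157 (69815 to 127580 UMIs). Levels are counts per 1000000 UMIs of the class in a library (CPM), and since a UMI marks 1 captured 3 prime end they are not divided by gene length. Dendritic-like cells fell under 20 in 1 library and were not tested.

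Among the macrophage-like barcodes, 28 carried melanocytic markers at more than 25% of the median tumour-like cell, and these held 34.8%, 11.2%, 22.0% and 22.8% of the macrophage-like UMIs, in the order Control 1, Control 2, Nanocapsule 1 and Nanocapsule 2, which is kept throughout. With them the 9 melanocytic markers summed to 10.8% to 27.8% of their tumour-like level, and without them to 2.23% to 2.97%. The same sum stood at 0.487% to 3.02% in T- and NK-like and 1.52% to 5.93% in B-like cells. RNA in barcodes under 100 UMIs also carried the members, for example Hk2 at 84.5 to 127 CPM. Macrophage-like results are therefore also given without the mixed barcodes. Leaving these out does not remove free RNA, which was subtracted in an alternative fit given at the end.

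Summed over all 31 members, tumour-like cells held 17549, 13694, 16793 and 16183 CPM, macrophage-like cells 12241, 7698, 14424 and 10569.9 CPM, T- and NK-like cells 5714, 3652, 6028 and 6121 CPM and B-like cells 3515, 2461, 2957 and 2994 CPM. Every tumour-like library lay above every T- and NK-like and B-like one. The 7 pentose phosphate genes were closer, with means of 762 ± 18.7 CPM (SD, n = 4 libraries) in tumour-like, 939 ± 18.8 in macrophage-like, 734 ± 126 in T- and NK-like and 683 ± 47.3 in B-like cells. In dendritic-like cells the pentose phosphate sum was 1303, 1430.3, 1252 and 1253 CPM, above every library of those 4 classes.

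Macrophage-like cells were higher than tumour-like cells in Pfkfb3, Pfkfb4, Slc2a1, Taldo1 and Pgd and lower in Pfkm, Aldoc, Pfkl, Pgk1 and Tpi1. Of the 31 members, 8 were higher and 10 lower (edgeR quasi-likelihood test with the library as a block, Benjamini-Hochberg adjusted p under 0.05). Over all 16165 genes tested, 25.4% were higher and 27.5% lower, so that the members' share is near the background. Their median log2 fold was -0.18, beside -0.17 for all genes. Without the mixed barcodes 8 were higher and 15 lower, beside 25.8% and 36.1% of all genes. TMM normalization added 0.31 to each log2 fold, and on total UMIs 5 members were higher and 20 lower, beside 20.2% and 40.2%.

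Pfkfb3, whose enzyme makes fructose 2,6-bisphosphate, the activator of phosphofructokinase, stood at 5.65, 7.47, 7.60 and 8.95 CPM in tumour-like and at 56.9, 40.1, 79.7 and 66.6 CPM in macrophage-like cells. No library of one class reached the other, and the log2 fold was 3.32 ± 0.17 (SE, edgeR adjusted p = 2.95e-15), or 3.63 without the mixed barcodes. Pfkfb4, a related bifunctional enzyme, stood at 2.45 to 2.65 CPM in tumour-like and at 19.9, 23.0, 9.78 and 18.4 CPM in macrophage-like cells, a log2 fold of 3.07 ± 0.27 (edgeR adjusted p = 2.38e-10), or 3.35 without the mixed barcodes. Tigar, whose product breaks fructose 2,6-bisphosphate down, was lower (-0.74 ± 0.26), and its call was lost without Control 2 (edgeR adjusted p = 0.141). Pfkfb2 did not pass (-0.50 ± 0.31). The folds of Tigar and Pfkfb2 were -1.16 and -0.68 without the mixed barcodes.

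Slc2a1, which encodes the glucose transporter GLUT1, stood at 95.8, 57.3, 102 and 88.6 CPM in tumour-like and at 179.6, 150.5, 444 and 162 CPM in macrophage-like cells. All macrophage-like values were higher, with Nanocapsule 1 far above the other 3. The log2 fold was 1.64 ± 0.30 (edgeR adjusted p = 0.015), and 1.60 with an adjusted p of 0.106 without Control 2. The fold was 1.88 when the mixed barcodes were left out. Slc2a3, which encodes GLUT3, stood at 8.91, 7.08, 9.02 and 7.36 CPM in macrophage-like cells and did not pass (-0.35 ± 0.24, or -0.42 without the mixed barcodes).

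In the pentose phosphate route Taldo1, which encodes transaldolase, stood at 149, 157, 139 and 141 CPM in tumour-like and at 302, 331, 348 and 279 CPM in macrophage-like cells. The classes did not overlap, and the log2 fold was 1.41 ± 0.10 (edgeR adjusted p = 3.86e-12). Pgd, whose enzyme makes NADPH, stood at 63.3, 78.9, 64.6 and 78.7 CPM against 127, 119.8, 116 and 134 CPM, also without overlap (1.11 ± 0.11, edgeR adjusted p = 1.62e-09). The folds of Taldo1 and Pgd were 1.59 and 1.28 without the mixed barcodes. Tkt, which encodes transketolase, was higher by 0.50 ± 0.10, but on total UMIs by 0.19 without a call, and by 0.60 when the mixed barcodes were left out. Pgls, the lactonase and the most abundant of the route in tumour-like cells, stood at 307, 254, 284 and 244 CPM against 246, 218, 213 and 183 CPM. Pgls, Rpia, Rpe and Prps1 did not pass, and without the mixed barcodes Pgls (-0.26) and Rpe (-0.43) were lower.

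In upper glycolysis Pfkl, the liver-type phosphofructokinase, stood at 288, 169.8, 297 and 239 CPM in tumour-like and at 150.1, 63.7, 156 and 107 CPM in macrophage-like cells (-0.79 ± 0.11). Pfkm, the muscle type, stood at 18.8, 16.0, 18.2 and 16.0 CPM against 6.86, 5.90, 3.01 and 3.68 CPM (-1.53 ± 0.26). Both were lower in every library, and without the mixed barcodes the folds were -1.10 and -2.32. Pfkp, the platelet type, stood at 154, 104, 159 and 147 CPM against 154, 104, 171 and 187 CPM and was higher by 0.42 ± 0.11, but by 0.11 without a call on total UMIs, and by 0.47 when the mixed barcodes were left out. Aldoc, the aldolase of brain, stood at 62.7, 46.5, 64.0 and 51.5 CPM against 32.9, 13.6, 19.6 and 22.5 CPM and was lower, with a log2 fold of -1.06 ± 0.16 (-1.75 without the mixed barcodes). Hk2, the inducible hexokinase, stood at 126, 98.1, 156 and 146 CPM against 81.6, 67.3, 104 and 88.7 CPM (-0.31 ± 0.11, edgeR adjusted p = 0.0182), and its call was lost without Control 1 (0.103) and without Nanocapsule 2 (0.0693). Its fold was -0.32 when the mixed barcodes were left out. Aldoa, the main aldolase gene and the most abundant of upper glycolysis, stood at 3407, 2495, 3207 and 2942 CPM against 2202, 1250.4, 3046 and 1614 CPM and did not pass (-0.34 ± 0.18, or -0.45 without the mixed barcodes). Hk1, at 85.0, 54.3, 76.7 and 68.2 CPM in macrophage-like cells, and Gpi1 did not pass either, and Hk1 was lower without the mixed barcodes (-0.47).

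In lower glycolysis Pgk1, whose enzyme makes ATP, stood at 2267, 1651, 2212 and 2014 CPM in tumour-like and at 1237, 533, 1314 and 899 CPM in macrophage-like cells. It was lower in every library, with a log2 fold of -0.80 ± 0.14 (edgeR adjusted p = 0.00135) or -1.09 without the mixed barcodes. Tpi1, the triose phosphate isomerase, was lower (-0.65 ± 0.10), as was Eno1, the common enolase (-0.37 ± 0.09). Eno1 stood at 1081, 927, 989 and 1063 CPM against 761, 434, 694 and 700.1 CPM. Eno2, the enolase of neurons, stood at 9.96, 4.79, 11.0 and 9.34 CPM against 6.86, 1.77, 2.26 and 2.45 CPM and was lower (-1.15 ± 0.34). Without the mixed barcodes the folds of Tpi1, Eno1 and Eno2 were -0.84, -0.59 and -1.88, the last on 10 macrophage-like UMIs. Reads of Eno1 can be shared with its near-identical copy Eno1b. Pkm, on the mean the most abundant gene of lower glycolysis in tumour-like cells, stood at 2494, 1866, 2331 and 2175 CPM against 1782, 1052, 1992 and 1636 CPM. In tumour-like cells of Nanocapsule 2, Gapdh was above Pkm. Pkm, Gapdh and Pgam1 did not pass, and without the mixed barcodes Gapdh (-0.29) and Pkm (-0.25) were lower. Of the side branches, Gpd2, the mitochondrial glycerol 3-phosphate dehydrogenase, was higher (0.65 ± 0.16), Bpgm, which makes 2,3-bisphosphoglycerate, lower (-0.81 ± 0.21), and Gpd1l did not pass. When the mixed barcodes were left out, the folds of these 3 genes were 0.67, -1.54 and 0.40. The Gpd2, Pfkp and Eno2 calls were lost without Nanocapsule 2 (edgeR adjusted p = 0.0788, 0.0569 and 0.0551), and that of Gpd2 also on total UMIs (0.0691).

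T- and NK-like cells held less of most enzymes from hexokinase 2 to pyruvate kinase and more Slc2a3 and Pfkfb3. Of the 31 members, 18 were lower and 4 higher than in tumour-like cells, beside 28.4% lower and 18.5% higher of all 15632 genes tested. The members' median log2 fold was -1.20, and that of all genes -0.45.

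Hk2 stood at 11.6, 2.56, 5.92 and 12.4 CPM in T- and NK-like cells, from 13 UMIs in all. This was far below every tumour-like library, with a log2 fold of -4.08 ± 0.33 (edgeR adjusted p = 6.03e-33). Hk1, the widely expressed hexokinase, stood at 69.7, 102, 59.2 and 59.3 CPM against 103, 88.1, 109 and 97.9 CPM and did not pass (-0.51 ± 0.22, edgeR adjusted p = 0.0501). Eno2 had 0 UMIs, and at the limit of 3 counts over the 4 libraries it was at least 4.51-fold lower than its 8.78 CPM in tumour-like cells.

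The 7 genes of lower glycolysis summed to 2834, 1645, 3008 and 3061 CPM, against 11331, 9026, 10826 and 10687 CPM in tumour-like cells. Gapdh stood at 581, 351, 565 and 728 CPM against 1979, 1798, 2085 and 2397 CPM, a log2 fold of -2.01 ± 0.15. Neither the sum nor Gapdh overlapped between the classes. Eno1 (-2.47 ± 0.18), Pgk1 (-2.44 ± 0.16), Tpi1 (-2.42 ± 0.16) and Pgam1 (-2.26 ± 0.17) were lower, as was Pkm, the pyruvate kinase gene (-1.53 ± 0.15). In upper glycolysis Pfkm (-2.73 ± 0.62), Aldoc (-2.33 ± 0.35), Pfkl (-1.94 ± 0.22), Aldoa (-1.62 ± 0.14) and Gpi1 (-1.34 ± 0.16) were lower. Pfkm rested on 1, 0, 0 and 3 UMIs and Aldoc on 3, 4, 6 and 3. Pfkfb2 (-2.16 ± 0.76), Tigar (-1.26 ± 0.51), Bpgm (-1.20 ± 0.41), Pgd (-0.77 ± 0.25) and Pgls (-0.57 ± 0.18) were lower too, and each of these 5 calls was lost when 1 or more single libraries were left out. Pfkp (0.27 ± 0.19), Tkt, Taldo1, Slc2a1, Rpia, Rpe, Pfkfb4 and Gpd1l did not pass, with log2 folds from -0.70 to 0.71.

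Slc2a3 stood at 10.8, 12.8, 12.4 and 14.2 CPM in tumour-like and at 92.9, 20.5, 47.3 and 68.9 CPM in T- and NK-like cells, a log2 fold of 1.93 ± 0.32 (edgeR adjusted p = 6.53e-09). Every T- and NK-like value lay above every tumour-like one. Pfkfb3 stood at 11.6, 30.7, 38.4 and 37.2 CPM, again above every tumour-like value (2.03 ± 0.37, edgeR adjusted p = 2.2e-07). Its Control 1 value was a single UMI, and the free RNA of that library held Pfkfb3 at 11.0 CPM. Prps1, whose enzyme makes phosphoribosyl pyrophosphate for nucleotides, was higher by 0.89 ± 0.34, and its call was lost without Control 2 (edgeR adjusted p = 0.0906). Gpd2 was higher by 0.82 ± 0.28, and its call was lost without Nanocapsule 2 (edgeR adjusted p = 0.344).

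In B-like cells most glycolysis genes were also lower than in tumour-like cells. Of the 31 members, 17 were lower and 4 higher, beside 23.6% and 13.5% of all 15180 genes tested. The members' median log2 fold was -1.89, and that of all genes -0.97, to which TMM normalization added -0.17. On total UMIs 15 members were lower and 4 higher, beside 20.6% and 14.9% of all genes. Gapdh stood at 243, 141, 196 and 215 CPM, below every tumour-like value (-3.55 ± 0.15). Pgk1 (-3.61 ± 0.15), Tpi1 (-3.51 ± 0.15), Hk2 (-3.33 ± 0.42), Pgam1 (-3.31 ± 0.16), Eno1 (-3.19 ± 0.17), Aldoa (-2.87 ± 0.12) and Pkm (-2.76 ± 0.13) were lower. Pfkp (-2.31 ± 0.34), Hk1 (-2.35 ± 0.40), Pfkl, Aldoc, Gpi1, Bpgm, Pgd and Tkt (-1.01 ± 0.22) were lower as well. Several rested on few UMIs, with 2, 0, 1 and 0 for Aldoc and 2, 1, 3 and 0 for Hk2. Hk1 and Hk2 together had 5, 3, 5 and 2 UMIs. The Bpgm call rested on 3 UMIs and was lost without Control 2, Nanocapsule 1 or Nanocapsule 2 (edgeR adjusted p = 0.0975, 0.134 and 0.109), on total UMIs (0.0623) and by DESeq2 (0.12). Slc2a1, Slc2a3, Pfkm, Pfkfb2, Pfkfb3, Tigar, Pgls, Rpe, Taldo1 and Prps1 did not pass, with log2 folds from -2.00 to 1.43.

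Gpd1l, related to glycerol 3-phosphate dehydrogenase, stood at 42.3, 62.7, 32.7 and 115 CPM in B-like cells against 9.58, 11.0, 9.66 and 9.50 CPM. It did not overlap between the classes (2.39 ± 0.44, edgeR adjusted p = 4.23e-07). Pfkfb4 (2.56 ± 0.82), Rpia, the ribose 5-phosphate isomerase (1.39 ± 0.40), and Gpd2 (0.98 ± 0.38) were higher on 7, 25 and 25 UMIs. These 3 calls were lost without Control 2 (edgeR adjusted p = 0.136, 0.117 and 0.314). Eno2 had 0 UMIs, at least 1.21-fold lower at the limit of 3 counts, and its call was lost without any 1 of the 4 libraries.

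**Figure D1:**
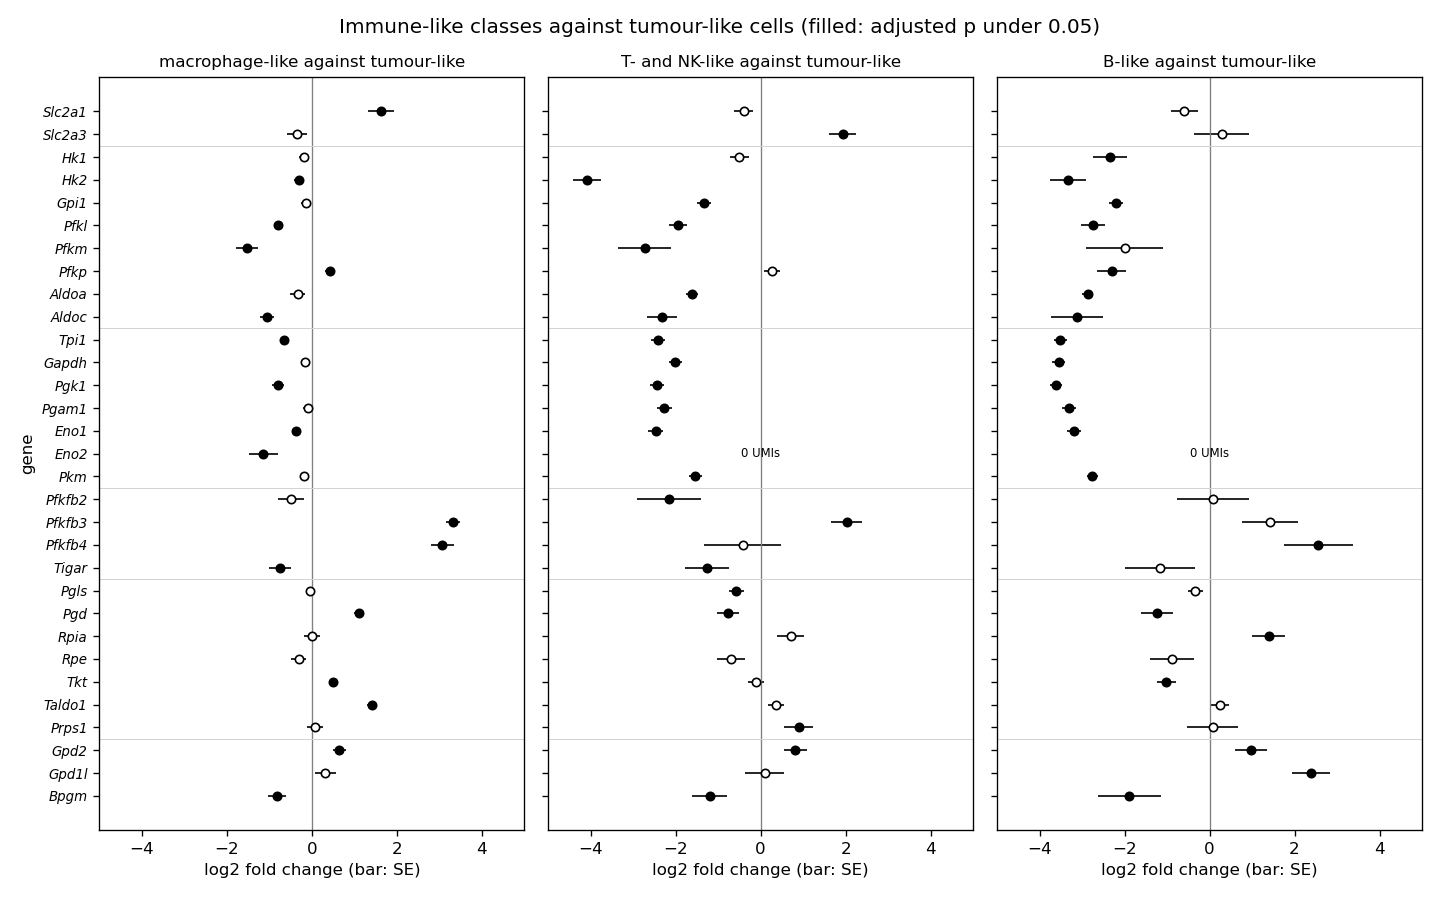
Log2 fold change (x axis) of each member (y axis) in macrophage-like, T- and NK-like and B-like cells against tumour-like cells, with SE bars; filled points had an adjusted p under 0.05. The lower glycolysis genes lie between -1.15 and -0.10 in the macrophage-like panel and, except for Eno2 with 0 UMIs, which is not drawn, at or below -1.53 in the T- and NK-like panel.

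Other genes of sugar metabolism were read from lists beside the 31, and their counts stand beside the shares of all genes given above (25.4% higher and 27.5% lower in macrophage-like cells). Of the other glycolysis enzymes and transporters, 4 were higher and 7 lower of 18 tested in macrophage-like cells. Hk3, a hexokinase of myeloid cells, stood at 84.3, 83.2, 105 and 154 CPM there and at 0.0216 to 0.148 CPM in tumour-like cells. Of the other pentose phosphate genes, 3 were higher and 1 lower of 8 tested, with G6pdx, the entry enzyme of the route, at 1.11 ± 0.14. Of the genes of lactate and pyruvate fate, 4 were higher and 5 lower of 15 tested, and Ldhb, a lactate dehydrogenase chain, was lower (-1.78 ± 0.17). Of the gluconeogenesis and glycogen genes, 1 was higher and 7 lower of 11 tested, with Pygl, a glycogen phosphorylase, at 3.70 ± 0.21 and Ugp2, which makes UDP-glucose, at -1.43 ± 0.10. Of the regulators, 4 were higher and 3 lower of 11 tested, and of the hypoxia genes outside glycolysis, 6 were higher and 11 lower of 20 tested, with Egln3 at 4.74 ± 0.39 and Car9 at -1.75 ± 0.17.

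When the mixed barcodes were left out, 9 of the gluconeogenesis and glycogen genes and 6 of those of lactate and pyruvate fate were lower, beside 36.1% of all genes, and the counts of the other 4 lists were the same. The median log2 fold of the other glycolysis enzymes and transporters was -0.18 with and -0.78 without these barcodes, beside -0.17 and -0.34 for all genes. Without these barcodes the folds were 1.28 for G6pdx, -3.84 for Ldhb, 3.99 for Pygl, -2.17 for Ugp2, 5.06 for Egln3, -3.19 for Car9 and 2.17 for Txnip. On total UMIs 1 of the other pentose phosphate genes was higher and 1 lower, and 2 of the lactate and pyruvate genes were higher and 9 lower. Of all genes, 20.2% were then higher and 40.2% lower.

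In T- and NK-like cells 10 of 15 genes of lactate and pyruvate fate were lower and 1 higher, with Ldhb at -4.62 ± 0.29. Of the hypoxia genes, 3 were higher and 14 lower of 20, and in B-like cells 0 and 18. Of the gluconeogenesis and glycogen genes, 8 of 11 were lower in T- and NK-like and 4 in B-like cells, and none was higher. These counts stand beside 28.4% lower and 18.5% higher of all genes in T- and NK-like cells. The shares in B-like cells were 23.6% and 13.5%. Txnip, an inhibitor of glucose uptake, was higher in macrophage-like (2.00 ± 0.14), T- and NK-like (3.09 ± 0.22) and B-like cells (4.63 ± 0.19).

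Isoform choice differed by family. The share of Pfkp among the 3 phosphofructokinase genes was 33.4%, 36.0%, 33.6% and 36.7% in tumour-like and 49.4%, 59.9%, 51.7% and 62.8% in macrophage-like cells. It was higher in all 4 libraries, by 21.1 ± 4.76 percentage points (SD, n = 4 libraries, two-sided exact sign-flip p = 0.125, the smallest that 4 libraries allow). Pfkl made up 60.7% ± 2.11 (SD) of the family in tumour-like and 42.1% ± 6.67 in macrophage-like cells. In T- and NK-like cells the Pfkp share was 65.2% (15 of 23 UMIs), 69.2%, 74.7% and 75.5%. With the mixed barcodes kept, these lay above every value of the other 2 classes. In dendritic-like cells the Pfkp share was 65.1% to 84.1%. Without the mixed barcodes the macrophage-like difference from tumour-like cells was 27.1 points. The macrophage-like shares were then 59.7%, 62.2%, 56.3% and 69.9%, which overlapped the T- and NK-like ones.

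Slc2a3 made up 10.1%, 18.3%, 10.8% and 13.8% of the Slc2a1 and Slc2a3 UMIs in tumour-like and 4.73%, 4.49%, 1.99% and 4.35% in macrophage-like cells. The difference was -9.39 ± 3.45 points, lower in all 4 libraries (exact p = 0.125). T- and NK-like cells ranged from 23.5% to 66.7%, above the other 2 classes. The Aldoc share of aldolase UMIs, 1.83% ± 0.0976 in tumour-like cells, was lower in all 4 macrophage-like values (-0.689 ± 0.463 points, exact p = 0.125). So was the Eno2 share of enolase UMIs, 0.850% ± 0.246 in tumour-like cells (-0.357 ± 0.357 points, exact p = 0.125). Without the mixed barcodes the 3 differences were -9.95, -1.06 and -0.485 points, again lower in all 4 libraries.

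The Hk2 share of hexokinase 1 and 2 was 54.9%, 52.7%, 58.9% and 59.9% in tumour-like and 49.0%, 55.3%, 57.5% and 56.5% in macrophage-like cells, and these overlapped (-2.01 ± 3.64 points, exact p = 0.375). Without the mixed barcodes it was 2.61 points higher, in 4 of 4 libraries. In T- and NK-like cells it was 14.3%, 2.44%, 9.09% and 17.3%, from 7 to 52 UMIs of both genes a library. Over the 5 shares the Benjamini-Hochberg adjusted exact p was 0.156 for Pfkp, Slc2a3, Aldoc and Eno2 and 0.375 for Hk2.

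**Figure D2:**
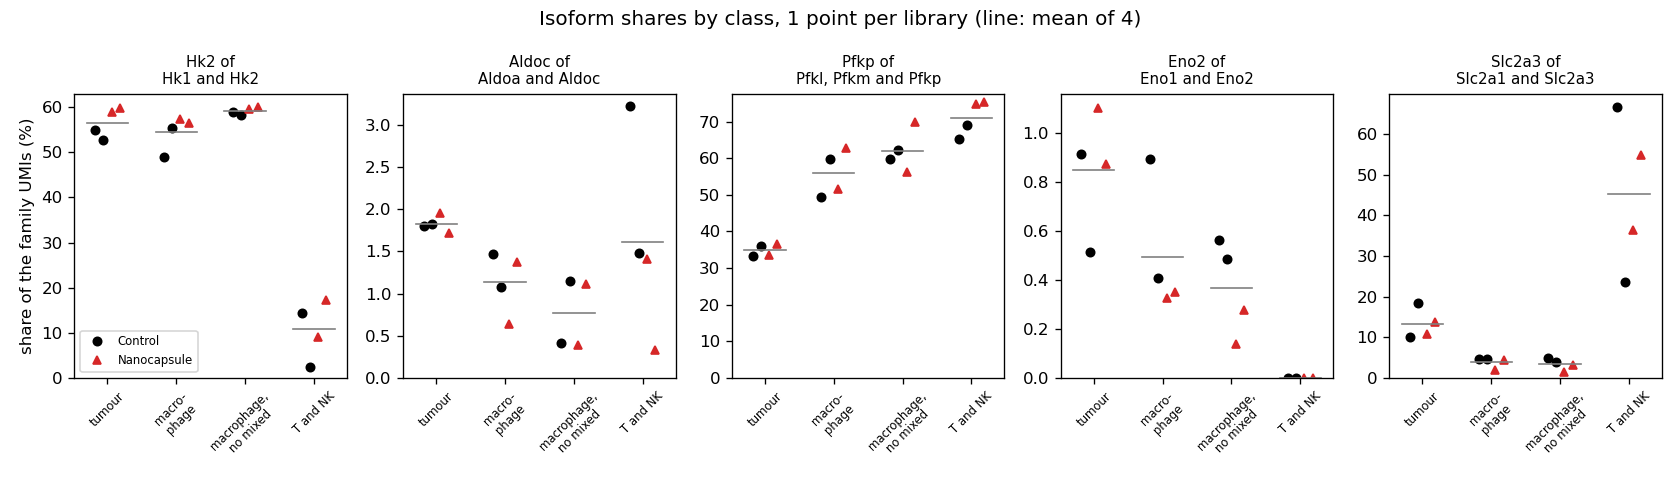
Share of family UMIs (y axis, percent) held by Hk2, Aldoc, Pfkp, Eno2 and Slc2a3 in 3 classes, with macrophage-like cells also shown without mixed barcodes; 1 point per library (circles Control, triangles Nanocapsule), the line is the mean of 4, and y axes differ between panels. The Pfkp share averages 34.9% in tumour-like, 56.0% in macrophage-like and 71.2% in T- and NK-like cells.

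Among the 12 tumour-like clusters, cluster 1 was led by Nppb, Espn, Pgf and Pkp2, with Ero1l and Eno2 also among its leading genes. It held 467, 75, 293 and 145 cells, 14.6%, 6.64%, 19.1% and 14.2% of the tumour-like cells. Cluster 8, with Bnip3 and Car9 among its leading genes, is shown with it, and together they made up 24.6%, 10.0%, 27.8% and 20.9%, the least in Control 2. Ero1l, Bnip3 and Car9 are known to respond to low oxygen. Since clusters come from the same cells, the following is a description without a test.

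Of the 31 members, 17 were higher and 11 lower in cluster 1 than in the other tumour-like cells in all 4 libraries. The 17 are the 8 upper and 7 lower glycolysis genes, Slc2a1 and Pfkfb3. The 11 are the 7 pentose phosphate genes, the 3 side-branch genes and Tigar. Pfkfb2, Pfkfb4 and Slc2a3 differed in direction between libraries. The share of all genes with 1 direction in all 4 libraries, or without overlap, was not counted. These counts therefore have no background and do not set the members apart from other genes.

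Slc2a1 stood at 283, 266, 275 and 277 CPM in cluster 1 and at 69.6, 44.1, 67.2 and 61.1 CPM in the other tumour-like cells, a mean log2 ratio of 2.21. Hk2 stood at 267, 284, 302 and 309 CPM against 106, 86.4, 126 and 122 CPM (1.41). Eno2, itself a leading gene of the cluster, stood at 36.1, 22.1, 33.6 and 37.0 CPM against 6.31, 3.70, 6.49 and 5.30 CPM (2.57). None of these 3 overlapped. The ratio was 1.60 for Pfkp, 1.08 for Hk1, 1.03 for Gpi1, the glucose 6-phosphate isomerase, and 0.84 for Gapdh, and was smallest among the glycolysis enzymes for Pgam1, the phosphoglycerate mutase (0.40).

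In the other direction, Prps1 stood at 8.49, 12.6, 8.85 and 8.23 CPM in cluster 1 against 16.5, 19.9, 15.4 and 17.2 CPM (-0.87). Taldo1 stood at 106, 101, 108 and 99.7 CPM against 155, 161, 145 and 147 CPM (-0.55). Both were below the other cells without overlap. Over the 7 pentose phosphate members the mean log2 ratio ran from -0.87 to -0.12, the latter for Tkt. Genes of these routes outside the list did not all split this way. In clusters 1, 0 and 5, G6pdx stood at 33.8, 33.0 and 29.1 CPM and Eno3, an enolase gene, at 10.9, 24.0 and 25.8 CPM. Prpsap1 (99.5, 152 and 192 CPM) and Pgm1 (353, 242 and 142 CPM) went with the split. Their ratios per library were not computed.

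**Figure D3:**
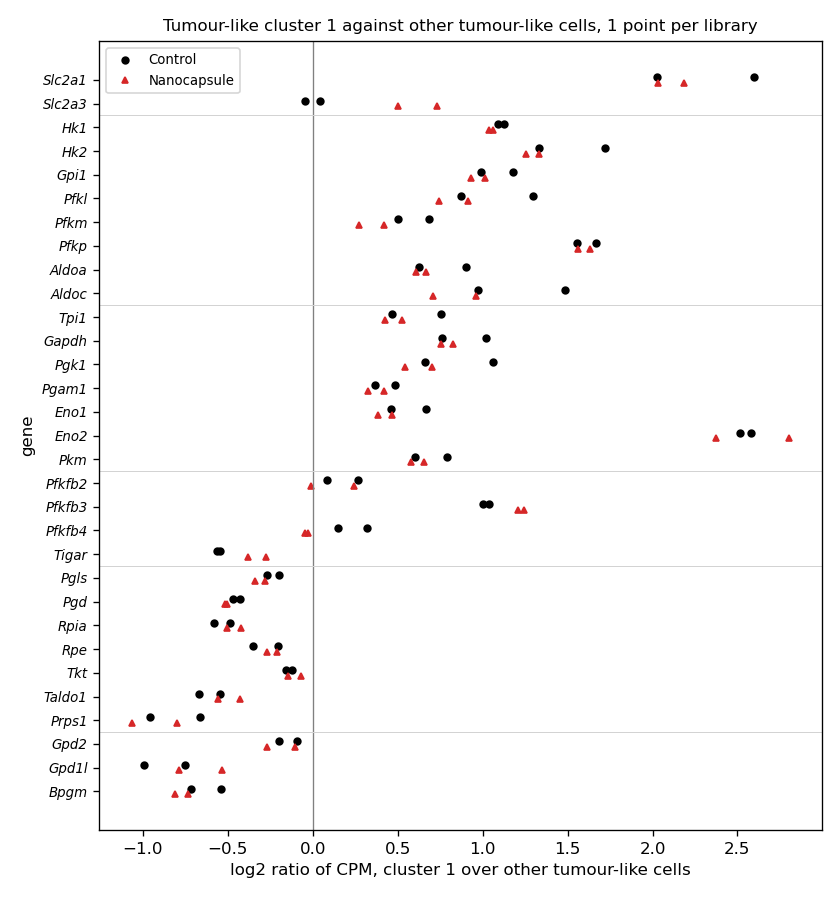
Log2 ratio of CPM (x axis) between tumour-like cluster 1 and the other tumour-like cells for each member (y axis), 1 point per library, with circles for Control and triangles for Nanocapsule. Among the members, every glycolysis enzyme gene lies right of 0 and every pentose phosphate gene left of 0 in each of the 4 libraries.

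Cluster 8, counted above among the other tumour-like cells, came next to cluster 1 in Aldoa (4022 CPM), Gapdh (2841 CPM), Pgk1 (3008 CPM), Hk2 (207 CPM) and Slc2a1 (147 CPM). It had the lowest Pgd (39.9 CPM) and Rpe (25.5 CPM) of the 12 clusters. Cluster 13 had the lowest Aldoa (708 CPM, against 4594 CPM in cluster 1) and the lowest Gapdh (486 CPM) of the 12 clusters, and the highest Slc2a3 (49.3 CPM). Cluster 20 was shallow, with a median of 4202 UMIs a cell, and had the highest Tkt (371 CPM), Taldo1 (230.3 CPM) and Pgd (115 CPM) with the lowest Hk2 (14.1 CPM). It made up 0.750%, 11.9%, 2.80% and 3.03% of the tumour-like cells.

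Over 46 points of a cluster in a library, the log2 level of the summed glycolysis enzymes correlated most closely among the members with Aldoa (Pearson r = 0.97), Pgk1 (0.96) and Pkm (0.95). Hk2 (0.16), Hk1 (0.28), Slc2a1 (0.32) and Pfkp (0.35) followed it less, and Gpd2 went the other way (-0.65). The genes outside the list most like the sum, of 6441 compared, were Myl6 (0.93), Mif (0.93), Vdac1 (0.92), Galk1 (0.92) and Myl12a (0.90). For each glycolysis member the sum left that gene out, but it is weighted to the most abundant genes. These points share libraries and depth, and the values are a description. They include cluster 13 (Aldoa 708 CPM, Gpd2 56.5 CPM) and the shallow cluster 20 (Hk2 14.1 CPM), whose part in the correlations was not tested. By cluster, Hk2 (290 CPM), Slc2a1 (277 CPM) and Pfkp (353 CPM) were highest in cluster 1, as was Aldoa (4594 CPM).

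Nanocapsule and control libraries were compared within 3 classes. No member and no other gene passed in tumour-like, macrophage-like or T- and NK-like cells (edgeR quasi-likelihood test, 0% called of 16196, 9549 and 5577 genes). At an unadjusted p under 0.05, edgeR gave 656 genes higher and 577 lower in tumour-like, 107 and 79 in macrophage-like and 217 and 209 in T- and NK-like cells. DESeq2 called 80 higher and 15 lower in tumour-like cells, with 0 members among them, 2 and 0 in macrophage-like and 3 and 0 in T- and NK-like cells.

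In tumour-like cells Hk2 stood at 126 and 98.1 CPM in the controls and at 156 and 146 CPM in the nanocapsule libraries. The groups did not overlap, with a log2 fold of 0.43 ± 0.15 (edgeR adjusted p = 0.639). Outside clusters 1 and 8 the levels were 98.1 and 80.1 CPM against 116 and 109.7 CPM, also without overlap. Slc2a1 (0.30 ± 0.29) and Eno2 (0.44 ± 0.39) were lowest in Control 2, the library with the fewest cells in those clusters, and outside them the levels of Slc2a1 were 60.8 and 39.0 CPM against 57.8 and 52.5 CPM and those of Eno2 5.32 and 3.42 CPM against 5.85 and 4.58 CPM. The log2 ratio of the group means was then 0.14 for Slc2a1 and 0.26 for Eno2, with overlapping groups, and 0.34 for Hk2. Cluster 14, led by interferon-response genes such as Rsad2 and Irgm1, made up 1.12%, 1.51%, 5.67% and 17.9% of the tumour-like cells, and its part in these values was not tested.

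Besides Hk2, tumour-like Pfkfb3 and Gapdh were above both controls in each nanocapsule library, and Gpd2, Taldo1 and Pfkfb4 were below them. These 6 of 31 members stand beside 37.1% of 12145 genes at 1 CPM or more whose groups did not overlap. Pfkfb3 had a log2 fold of 0.34 ± 0.14, Gapdh 0.24 ± 0.13 and Taldo1 -0.13 ± 0.07. The members' median was 0.03, and that of all genes 0.00.

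In macrophage-like cells 22 of 28 members tested had a log2 fold above 0, with a median of 0.30 beside 0.00 for all genes. When the mixed barcodes were left out, 20 of 26 did, with a median of 0.49. Summed over all members, the groups overlapped, at 12241 and 7698 CPM in the controls and 14424 and 10569.9 CPM in the nanocapsule libraries. Without the mixed barcodes they overlapped as well (10064.5 and 7599 CPM against 14986.5 and 9893 CPM). The hypoxia genes outside glycolysis lay above 0 for 19 of 20, with a median of 0.38 (0.68 without the mixed barcodes), and 0 were called. Groups did not overlap for 10 of 31 members, 5 higher (Rpe, Pfkfb3, Hk2, Gapdh and Pfkp) and 5 lower, beside 26.8% of 12577 genes. With the mixed barcodes left out, the numbers were 6 and 6 of 31, beside 32.4% of 11840 genes, and 0 members were called. Slc2a1 had the largest fold (0.97 ± 0.48), and without Nanocapsule 1 it was -0.04. Pfkfb3 (0.66 ± 0.28) and Pfkp (0.54 ± 0.25) did not pass either. The folds of Slc2a1, Pfkfb3 and Pfkp were 1.06, 0.58 and 0.69 without the mixed barcodes.

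In T- and NK-like cells 17 of 21 members tested had a log2 fold above 0, with a median of 0.51 beside 0.00 for all genes. All members together held 5714 and 3652 CPM in the controls and 6028 and 6121 CPM in the nanocapsule libraries, with Control 2 far below the rest. The 7 NK cell markers summed to 2346 and 2162 CPM in the controls and 1417 and 1439 CPM in the nanocapsule libraries, and the 9 melanocytic markers to 372 and 264 CPM against 79.9 and 55.1 CPM. Neither sum overlapped between the groups, and each was higher in the controls, while the 10 T cell markers (3066 and 4435 CPM against 3596 and 4947 CPM) overlapped, and the part of these sums in the members' values was not tested. Tpi1 stood at 325 and 194 CPM in the controls and at 512 and 493 CPM in the nanocapsule libraries. It did not overlap and did not pass (1.08 ± 0.30, edgeR adjusted p = 0.456), but was called without Control 1 (1.40, edgeR adjusted p = 0.049), a library with 20 of these cells. That fit has a single control library, whose spread is assumed to be that of the nanocapsule pair. Groups did not overlap for 10 of 30 members at 1 CPM or more, 8 higher and 2 lower, beside 34.7% of 12110 genes. Aldoa (0.59 ± 0.26), Pfkp (0.68 ± 0.31) and Gapdh (0.57 ± 0.30) did not pass.

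The difference of the nanocapsule effect between macrophage-like and tumour-like cells was tested as an interaction. It was called for 0 of 31 members, with 0.247% of 16165 genes called. Pkm (0.40 ± 0.17), Pgam1 (0.38 ± 0.19) and Gpi1 (0.40 ± 0.19) were the 3 members with an unadjusted edgeR p under 0.05. Over all 16165 genes, 154 higher and 340 lower had one. Without the mixed barcodes 9 members had one, beside 246 higher and 521 lower of 16056 genes. On total UMIs 0 members had one, beside 129 higher and 441 lower of 16165 genes. In neither setting was a member called.

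**Figure D4:**
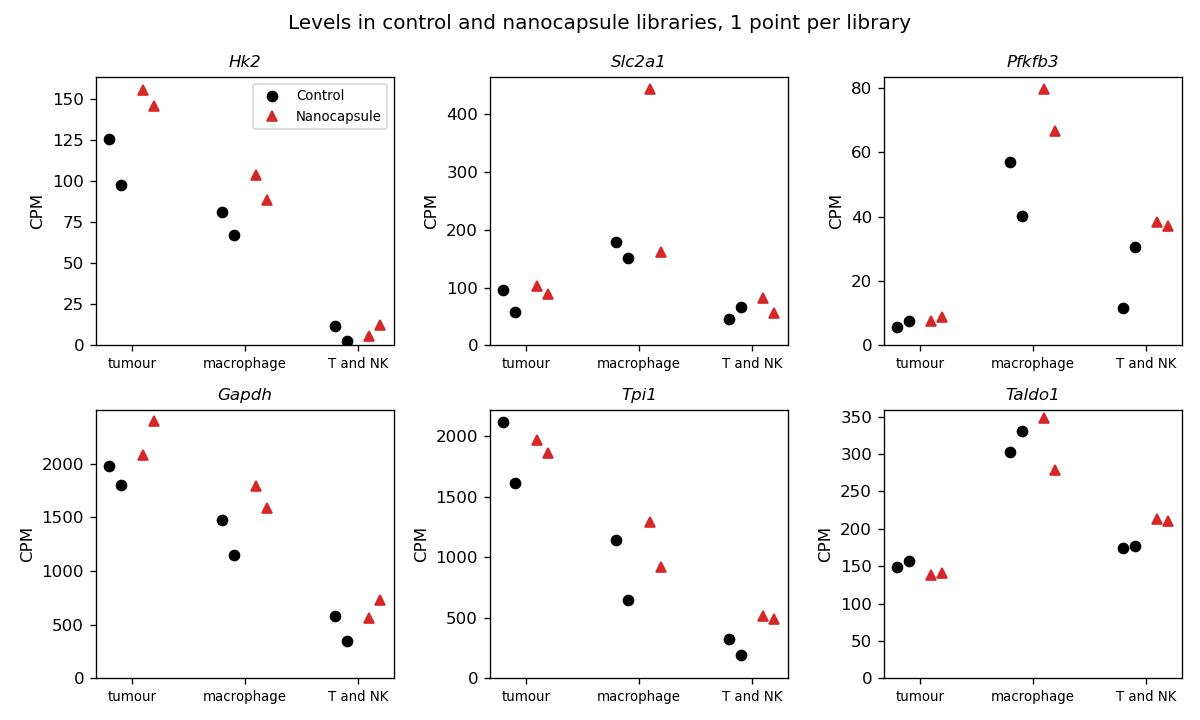
CPM (y axis) of Hk2, Slc2a1, Pfkfb3, Gapdh, Tpi1 and Taldo1 in tumour-like, macrophage-like and T- and NK-like cells, 1 point per library, with circles for Control and triangles for Nanocapsule. Tumour-like Hk2 is higher in the nanocapsule libraries (156 and 146 CPM) than in the controls (126 and 98.1 CPM), and no gene passed the test.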

How the data were processed

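The authors deposited UMI counts per gene and barcode, raw and not normalized; per the labels the libraries used 10x Genomics 3 prime chemistry. The submitters' processing notes name Cell Ranger 2.1.1 and mm10, while the file headers name Cell Ranger 4.

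Cells had at least 1500 UMIs, 200 genes and at most 20% mitochondrial UMIs. Clusters came from 2000 variable genes, 30 components, 15 neighbours and Leiden resolution 1.0 (scanpy 1.11.5), and naming limits were set after seeing the data. Scrublet marked 13 of 9548 cells, too few to have worked, and none was removed. Libraries shared 36 barcodes. Counts were summed per library and class and tested with edgeR 4.0.16 (TMM, filterByExpr), with DESeq2 1.42.0 as an alternative. T-like cells alone fell under 20 in 1 library and were summed with NK-like cells after their number was seen. On simulated counts with 4-fold changes, 87% of 200 changed genes were recovered in the macrophage-like comparison (16380 genes) and 97.5% in the tumour-like treatment comparison (16225 genes). Unchanged genes gave 4 and 15 false calls. In the macrophage-like and T- and NK-like treatment comparisons 91% and 81% were recovered. All genes were drawn at 1 fixed dispersion from 1 mean profile shared by all samples, without library or class differences. Changed genes were taken only from those above a minimum mean count. Folds as small as those seen between the treatments were not simulated. The percentages therefore do not give the sensitivity of the real comparisons. Members called in a comparison and those of the isoform families were named, and from other lists up to 4 called genes with the largest folds, of which those on more than 3 UMIs were drawn on. The members and lists were chosen with earlier results of these data known.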

Additional observations from a re-analysis of the deposited data

How the results depend on the processing

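Called members numbered 12 to 25 for macrophage-like, 18 to 25 for T- and NK-like and 19 to 22 for B-like cells under the alternatives that kept all libraries. Leaving out 1 library gave 14 to 24, 17 to 23 and 17 to 20. Over all single-gene values and settings, 1604 stayed on their side of the threshold, 59 lost the call and 53 gained it, and no called value changed sign. The difference in the Hk2 share of Hk1 and Hk2, macrophage-like minus tumour-like, reversed to 4.38 points when cells were called at 0.1 of the UMI count at percentile 99 of each library's 3000 largest barcodes and to 2.61 points without mixed barcodes, and the cause was not tested. Without the library block the macrophage-like calls of Hk2, Pfkl, Pfkp, Pgk1, Eno1 and Eno2 were lost. The Hk2 call was also lost with RLE size factors (edgeR adjusted p = 0.0543) and at Leiden resolution 2.0 (0.0536). That of Eno2 was lost at Leiden resolution 2.0 (edgeR adjusted p = 0.0558) and at most 10% mitochondrial UMIs (0.0537). That of Tigar was lost by DESeq2 (adjusted p = 0.0592). Free RNA was subtracted from each immune-like class in proportion to its melanocytic markers, which mixed barcodes also raise. The macrophage-like Pfkp call was then lost (0.27), and Hk1 (-0.69), Aldoa (-0.94), Gapdh (-0.48), Pgam1 (-0.39) and Pkm (-0.57) were called lower. In T- and NK-like cells Hk1 was called lower (-0.55), and no B-like call changed. The T- and NK-like treatment comparison had 0 to 1 called members with 1 library left out.

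Over all genes, DESeq2 called 2662 lower in T- and NK-like cells against 4432 by edgeR, and 1984 against 3589 in B-like cells. With no low-count filter the treatment comparisons gave 8 higher and 0 lower in tumour-like, 25 and 13 in macrophage-like and 36 and 22 in T- and NK-like cells. The interaction's 4 higher and 36 lower became 10 and 72 without mixed barcodes, and ranged over its alternatives from 0 to 87 and from 6 to 109. That rule of cell calling left too few T- and NK-like and B-like cells and was not run for them. The joined T and NK class and scaling by total UMIs were chosen after seeing the data.

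Replicate numbers are shared by the groups, but nothing says that they pair the libraries. Deviations of same-numbered libraries correlated at 0.50 in tumour-like, 0.22 in macrophage-like and -0.09 in T- and NK-like cells. With the replicate number as a block, 0 members were called in each treatment comparison, and over all genes 163 were higher and 106 lower in tumour-like, 4 and 1 in macrophage-like and 1 and 2 in T- and NK-like cells. Depth limits B-like and T- and NK-like values most.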
